A study of Rattus norvegicus with 30 samples.

Results

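A set of 8 genes whose signal was higher at 3000 µM phenobarbital than with vehicle, without overlap of the arrays at 48 h only for Arhgap22, Pla2g4b and Mapk4 and at 24 h only for Tnfrsf1b, was followed across 6 groups of primary rat hepatocytes. They are Thbd, Tnfrsf1b, Rgs19, Igsf23, Arhgap22, Shc4, Pla2g4b and Mapk4, 8 of the 14217 genes that the array reads with a probe set of 1 symbol. They were chosen by name from among the largest differences at 3000 µM against vehicle, most of them with little signal in vehicle. Every probe set annotated to 1 of them was taken, which gave 11 of 31042 probe sets other than controls. Thbd had 3 probe sets, Mapk4 had 2 and each of the other genes had 1. The values at 3000 µM and in vehicle therefore chose the genes, and differences between those wells are given as a description, with no test.

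The study measured RNA from 30 wells, with an Affymetrix whole-genome rat GeneChip for each, on which sets of short oligonucleotides read transcripts. Hepatocytes from male Sprague Dawley rats had been bought frozen, plated on collagen under Matrigel, and dosed on day 3 of culture with vehicle, 300 µM or 3000 µM phenobarbital for 24 h or 48 h. This gave 5 wells in each of 6 groups: vehicle at 24 h, 300 µM at 24 h, 3000 µM at 24 h, and the same doses at 48 h. The sample titles call the vehicle water and the agent field calls it culture medium. The labels give no genotype or age beyond the strain, and call the 5 wells independent cultures without naming the donors. A p-value here therefore measures spread between wells, not between animals.

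Phenobarbital is a barbiturate that induces drug-metabolising enzymes in liver, chiefly through the nuclear receptor CAR. The 8 genes do not form a known pathway. Thbd encodes thrombomodulin, a membrane protein of endothelial cells that binds thrombin and turns it toward activation of protein C, an anticoagulant. Tnfrsf1b encodes TNF receptor 2, the TNF receptor of restricted expression, found mainly on immune and endothelial cells. Rgs19 and Arhgap22 encode GTPase activating proteins, the former for heterotrimeric G proteins of the inhibitory class. Shc4 is a member of the Shc adaptors that couple receptor tyrosine kinases to Ras, Mapk4 encodes the atypical kinase ERK4, and Pla2g4b encodes a cytosolic phospholipase A2. Igsf23 is a little studied member of the immunoglobulin superfamily.

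The deposited signals were scaled by the authors' software so that the mean of each array, without the 2% of values at each end, was 1500.6 to 1500.7. Array medians lay between 349 and 425, and 2 arrays of the same group correlated over probe sets with r of 0.917 to 0.946 on the log2 scale. Array 1 of vehicle at 24 h and array 4 of 3000 µM at 48 h stood apart: their mean log2 signal over 18 hybridization control probe sets was 14.14 and 14.57, against 13.35 or less on the other 28 arrays. Testing was limited to the 16596 probe sets with a group mean, in any of the 6 groups, at or above a signal of 384, which is the median over the table. At 3000 µM 5319 of these (32.0%) changed against vehicle at 24 h and 6539 (39.4%) at 48 h (limma, adjusted p under 0.05). Of the 24 h calls 53.9% were higher, and 67.0% with array medians centred. Of 13 hepatocyte markers on the array, among them Fga, Apob, Fgb and Cyp2e1, none was below that signal in any group.

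Of the 11 probe sets of the 8 genes 9 passed this filter. Thbd 1368901_at, Thbd 1375951_at, Tnfrsf1b, Rgs19, Pla2g4b and Mapk4 1374724_at reached a signal of 384 in group means at 3000 µM only, at both times. Igsf23 and Arhgap22 reached it at 3000 µM only at 48 h, and Shc4 at 3000 µM at both times and in vehicle and 300 µM at 48 h. Thbd 1368900_at and Mapk4 1378751_at reached it in no group and were not tested. Because most probe sets passed through the wells that chose them, counts over the 9 are no support for the choice. Levels are signals of 1 probe set and are not compared between probe sets.

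The promoters of Tnfrsf1b and Igsf23 are shown because these members' listed start is the outer start of the gene. For the other 5 genes found in the table of RefSeq promoters (build GRCr8), the listed start lies inside the annotated gene. Both sequences are the 250 bases before the start, on the minus strand, at chr5:162387412-162387661 for Tnfrsf1b and chr1:88738392-88738641 for Igsf23. Capitals mark motifs.
Tnfrsf1b: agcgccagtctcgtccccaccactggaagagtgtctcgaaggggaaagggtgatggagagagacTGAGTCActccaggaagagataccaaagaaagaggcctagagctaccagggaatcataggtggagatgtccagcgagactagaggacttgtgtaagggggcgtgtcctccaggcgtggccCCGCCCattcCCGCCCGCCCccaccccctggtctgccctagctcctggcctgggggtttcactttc
Igsf23: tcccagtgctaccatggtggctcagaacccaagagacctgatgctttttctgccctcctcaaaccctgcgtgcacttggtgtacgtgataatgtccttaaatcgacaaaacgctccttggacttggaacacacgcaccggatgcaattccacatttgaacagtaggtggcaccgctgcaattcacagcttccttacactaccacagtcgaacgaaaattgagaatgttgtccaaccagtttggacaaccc
The Tnfrsf1b stretch held the AP-1 motif TGACTCA, read on the opposite strand, from 186 bases before the start, and 3 copies of the GC box GGGCGG on that strand, 2 of them overlapping. Over windows of 300 bases, from 250 before to 50 after the start and on both strands, TGACTCA was in 4.53% of 27457 promoters and GGGCGG in 34.9%. Of the 7 genes with a window only Tnfrsf1b held TGACTCA, and GGGCGG was also in those of Arhgap22 and Shc4. The core of the antioxidant response element, TGACNNNGC, was in that of Pla2g4b (12.2% of promoters), and the nuclear receptor motif AGGTCA in that of Mapk4 (15.7%). The CRE (TGACGTCA), TGATGCAA, CCACACCC, TATAAA, the heat shock element and the direct repeat DR4 of CAR and PXR were in none of the 7. No motif was held by more than 3 of the 7 genes. A match is a string of letters and not a bound site.

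Thbd had the largest difference of any named probe set tested at 3000 µM, at both times (rank 1 of 12971). With 1375951_at the signals at 24 h were 111, 11.7, 77.5, 111 and 41.4 in vehicle, 244, 20.5, 189.8, 190.3 and 190.2 at 300 µM and 1221, 1789, 1764, 1764 and 2453 at 3000 µM. After 48 h the signals were 59.0, 105, 116, 50.9 and 100.0 in vehicle, 130.1, 170.1, 139, 98.9 and 173 at 300 µM and 3709, 3666, 2955, 3554 and 4226 at 3000 µM. Every 3000 µM array was above every vehicle and every 300 µM array of its time, while vehicle and 300 µM overlapped. On the log2 scale 3000 µM differed from vehicle by 5.02 at 24 h (SE 0.513) and 5.46 at 48 h (SE 0.513), or 3.49 and 4.33 as log2(signal + 100), a scale that understates the change of low signals. In position on the array the group mean stood at or above 14.1% of probe sets in vehicle at 24 h and 78.6% at 3000 µM, and 19.2% and 87.4% at 48 h. The 48 h signals at 3000 µM all lay above the 24 h ones, by 1.04 in log2.

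**Figure D1:**
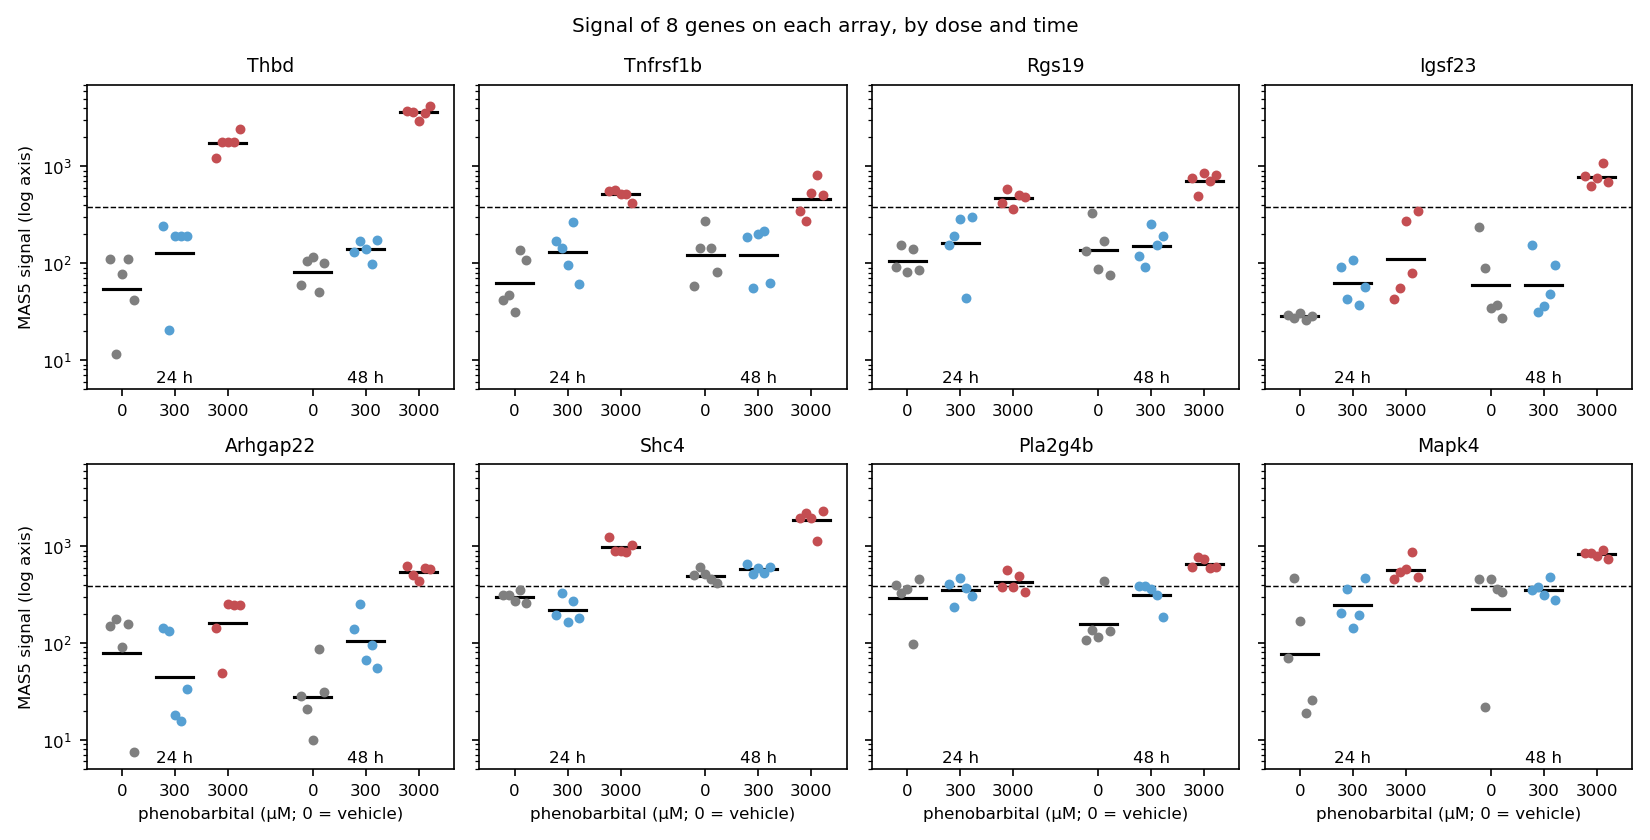
MAS5 signal on a log axis for the 8 genes on each of 30 arrays, by phenobarbital dose (µM, 0 is vehicle) and time, with 1 point per array, a black bar at the geometric mean of 5 arrays and a dashed line at the filter's signal of 384. Thbd is shown by 1375951_at and Mapk4 by 1374724_at. At 3000 µM and 48 h the 5 points lie above those of both lower doses in all 8 panels but Tnfrsf1b, in which 1 point falls among the vehicle points.

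The other Thbd probe sets gave different sizes of the same contrast. With 1368901_at the signals at 24 h were 18.3, 20.6, 15.2, 293 and 78.6 in vehicle, 123, 155, 151, 76.2 and 178 at 300 µM and 609.8, 561, 666, 437 and 559 at 3000 µM. The 48 h signals were 120.2, 57.8, 12.3, 33.8 and 167 in vehicle, 137, 102, 104, 128 and 225 at 300 µM and 803, 656, 1014, 1529.8 and 1494 at 3000 µM. The 3000 µM arrays again lay above all others of their time, and the vehicle arrays spread widely, with an SD of 1.82 in log2 at 24 h. The difference of 3000 µM from vehicle was 3.74 at 24 h (SE 0.631) and 4.25 at 48 h (SE 0.631), or 2.02 and 2.76 as log2(signal + 100). Without array 1 of vehicle at 24 h and array 4 of 3000 µM at 48 h these were 3.44 and 4.12, and for 1375951_at 5.28 and 5.46.

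The last Thbd probe set, 1368900_at, was near the bottom of the array. Its signals at 24 h were 48.1, 16.6, 22.2, 80.9 and 32.0 in vehicle, 23.2, 21.4, 33.4, 30.9 and 84.8 at 300 µM and 59.4, 69.1, 48.8, 46.4 and 71.2 at 3000 µM. At 48 h they were 43.5, 31.2, 24.6, 13 and 25.2 in vehicle, 17.5, 37.2, 19.6, 30.1 and 14.1 at 300 µM and 15.4, 79.7, 278, 80.7 and 433 at 3000 µM. Groups overlapped at both times, and at 3000 µM and 48 h 1 array was as low as vehicle while 2 were far above the rest. In the fit without the filter its difference from vehicle was 0.77 at 24 h and 2.02 at 48 h (SE 0.625 each). What part of the transcript each probe set reads was not analysed here.

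At 300 µM neither tested Thbd probe set passed the test. 1375951_at differed from vehicle by 1.24 at 24 h (SE 0.513, limma adjusted p = 0.233) and 0.77 at 48 h (SE 0.513, limma adjusted p = 0.629). For 1368901_at the differences were 1.64 (SE 0.631, limma adjusted p = 0.188) and 1.29 (SE 0.631, limma adjusted p = 0.42). The 24 h calls changed with single arrays: without array 2 of 300 µM 1375951_at rose by 1.90 (limma adjusted p = 0.00708), and without array 4 of vehicle 1368901_at rose by 2.34 (limma adjusted p = 0.0183). Over all alternatives the adjusted p ranged from 0.00708 to 0.615 and from 0.0183 to 0.5. Since vehicle wells had served in part to choose the genes, these calls are not independent of the choice.

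**Figure D2:**
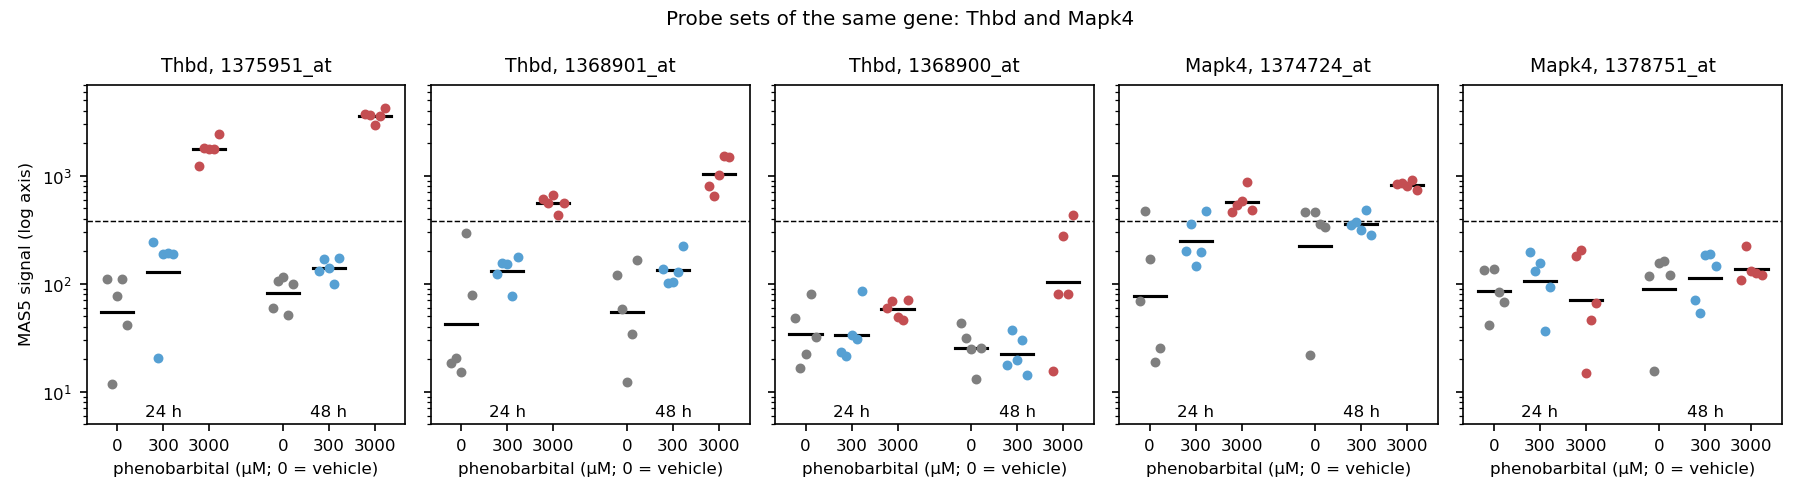
MAS5 signal on a log axis for the 3 probe sets of Thbd and the 2 of Mapk4, by dose (µM, 0 is vehicle) and time, with 1 point per array, bars at the geometric mean of 5 arrays and the dashed line at the filter's signal of 384. Thbd 1375951_at and 1368901_at separate at 3000 µM, and 1368900_at and Mapk4 1378751_at do not.

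Thrombomodulin acts with thrombin, protein C and its receptor, and the other genes of that pathway were read beside it. At 3000 µM 3 of 18 tested genes of the protein C and thrombin pathway rose and 7 fell at 24 h, and 4 rose and 8 fell at 48 h (limma, adjusted p under 0.05). Over all probe sets tested 17.3% rose and 14.8% fell at 24 h, and 19.5% rose and 19.9% fell at 48 h. The list's median change was 0.00025 in log2 at 24 h and -0.09 at 48 h, against 0.01 and -0.00083 over all probe sets tested. Gas6, a vitamin K dependent ligand of TAM receptors, fell by 0.73 at 24 h (limma adjusted p = 1.2e-08), and F2, prothrombin, fell by 0.50 at 24 h (limma adjusted p = 5.43e-09). Plat, tissue plasminogen activator, fell by 0.62 at 48 h (limma adjusted p = 3.02e-09). Klf4, a zinc finger factor known to activate Thbd in endothelium, rose by 0.61 at 48 h with all 5 arrays above vehicle (limma adjusted p = 2.06e-05). Klf2, its relative with the same known role and named after its value was seen, fell by 0.34 at 48 h (limma adjusted p = 0.0155). Procr, the receptor of protein C, rose by 0.39 at 24 h and 0.25 at 48 h (limma adjusted p = 0.000967 and 0.0266). Proc, protein C itself, fell by 0.38 at 24 h and 0.46 at 48 h (limma adjusted p = 6.05e-08 and 7.86e-10). Procr and Proc were also named after their values were seen. With array medians centred 3 of the 18 rose and 4 fell at 24 h, where 67.0% of the 5089 calls over all probe sets were higher.

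Because thrombomodulin is best known from endothelium, markers of that cell type were read beside it. Of 17 endothelial markers on the array 12, among them Pecam1, Vwf, Tie1, Erg, Stab2 and Lyve1, were below the filter's signal in every group. Pecam1 stood at or above 24.2% of probe sets in vehicle and 25.9% at 3000 µM at 24 h, and 27.6% and 15.3% at 48 h. The summed signal of the 17 markers was 3962 to 4786 in vehicle and 3393 to 4318 at 3000 µM at 24 h, and 4791 to 5429 and 3320 to 4682 at 48 h. Clec14a alone carried the lower sum at 48 h, with 21.8% to 30.1% of it in vehicle and 0.0487% to 2.78% at 3000 µM. The other 16 markers, a sum taken after seeing the data, gave 3352 to 4030 in vehicle and 3227 to 4666 at 3000 µM at 48 h, which overlapped. Of the 5 tested none rose and 1 fell at 24 h, where 17.3% of all tested rose and 14.8% fell. At 48 h these shares were 19.5% and 19.9%. Clec14a fell by 6.58 at 48 h (limma adjusted p = 1.01e-08), and Esam and Eng rose by 1.03 and 0.47 (limma adjusted p = 0.0359 and 0.0391), calls that were both lost without the 2 arrays that stood apart. RNA came from whole wells, so fewer cells of a type and less RNA per cell cannot be told apart.

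Tnfrsf1b had the third largest difference at 3000 µM of named probe sets at 24 h, and a smaller one at 48 h. Its signals at 24 h were 41.9, 47.4, 31.3, 137 and 107 in vehicle, 168, 144, 94.8, 269 and 60.8 at 300 µM and 563, 568, 525, 522 and 422 at 3000 µM. After 48 h the signals were 58.1, 142, 273, 143 and 81.5 in vehicle, 185, 55.9, 199, 215 and 62.2 at 300 µM and 344, 272, 534, 816 and 503 at 3000 µM. At 24 h the 3000 µM arrays lay close together and above all others. At 48 h they overlapped vehicle by 1 array, in vehicle wells that were higher than at 24 h in the mean. On the log2 scale 3000 µM differed from vehicle by 3.06 at 24 h (SE 0.505) and 1.92 at 48 h (SE 0.505), or 1.88 and 1.30 as log2(signal + 100), and the 3000 µM means themselves differed by -0.17 between 48 h and 24 h. At 300 µM it was 1.07 at 24 h (SE 0.505, limma adjusted p = 0.315) and 0.01 at 48 h (SE 0.505, limma adjusted p = 0.996).

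Of 30 other tested genes of the TNF receptor superfamily and TNF signalling 7 rose and 2 fell at 24 h at 3000 µM, and 6 rose and 5 fell at 48 h (limma, adjusted p under 0.05). Among all probe sets tested 17.3% rose and 14.8% fell at 24 h, and 19.5% rose and 19.9% fell at 48 h, so the 48 h counts were near these shares. Nfkbib, an inhibitor of NF-kB, rose by 1.05 at 48 h (limma adjusted p = 2.51e-08), and Birc2, a ubiquitin ligase of the receptor complex, rose by 0.67 at 48 h (limma adjusted p = 1.51e-09). Traf2, the adaptor that binds TNF receptor 2, rose by 0.73 at 24 h (limma adjusted p = 0.0353). Tnfsf10, which encodes the ligand TRAIL, fell by 1.05 at 48 h (limma adjusted p = 0.000699). The list's median change was 0.06 at 24 h and 0.05 at 48 h.

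Macrophages also express TNF receptor 2. The summed signal of 15 macrophage markers was 28820 to 30350 in vehicle and 27310 to 29710 at 3000 µM at 24 h, and 20800 to 24660 and 23650 to 26960 at 48 h. Lyz2 and Cd14 made up 75.9% to 85.7% of these sums. The other 13, likewise summed after seeing the data, gave 4612 to 6110 in vehicle and 4081 to 5063 at 3000 µM at 24 h, and 4235 to 5500 and 3926 to 5599 at 48 h, with overlap at both times. Of the 10 tested 2 rose and 3 fell at 24 h, and 2 rose and 1 fell at 48 h (limma, adjusted p under 0.05). The shares of all tested that rose and fell were 17.3% and 14.8% at 24 h, and 19.5% and 19.9% at 48 h. C1qb, C1qa and C1qc, the chains of complement C1q, fell by 1.62 at 24 h, 0.81 at 24 h and 1.23 at 48 h (limma adjusted p = 0.00347, 0.014 and 0.0463). Each is given at the time of its larger change. C1qc was the 1 marker that fell at 48 h, from a vehicle mean below the filter's signal, and C1qa and C1qb were not called then. Cd68 rose by 0.80 at 48 h (limma adjusted p = 0.000411), and Ptprc, which marks all leukocytes, was below the filter's signal in every group. The part of these cells in the Tnfrsf1b signal was not tested.

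Rgs19 shortens signalling by inhibitory G proteins, and its difference at 3000 µM was of like size at both times. Signals at 24 h were 91.4, 153, 80.9, 139.9 and 85.8 in vehicle, 155, 192, 289, 43.6 and 298 at 300 µM and 414, 589, 366, 509 and 488 at 3000 µM. The 48 h signals were 132, 329, 87.9, 168 and 75.6 in vehicle, 117, 91.8, 257, 155 and 189 at 300 µM and 761, 493, 847, 701 and 815 at 3000 µM. The 3000 µM arrays were above all others of their time. The difference from vehicle was 2.14 at 24 h (SE 0.424) and 2.37 at 48 h (SE 0.424). At 300 µM it was 0.61 (SE 0.424, limma adjusted p = 0.567) and 0.15 (SE 0.424, limma adjusted p = 0.946), with overlap at both times.

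Of 12 other tested genes of the RGS family and the G alpha subunits it acts on, 2 fell at 24 h at 3000 µM, and 3 rose and 2 fell at 48 h (limma, adjusted p under 0.05). Over all tested 17.3% rose and 14.8% fell at 24 h, and 19.5% rose and 19.9% fell at 48 h. Rgs16 fell by 1.68 at 24 h (limma adjusted p = 5.38e-15) and Rgs5 by 1.07 at 48 h (limma adjusted p = 1.9e-06), both lower where Rgs19 was higher. Gipc1, a PDZ protein that binds Rgs19, rose by 0.53 at 48 h (limma adjusted p = 0.000127), and Gna11, a G alpha subunit of the Gq class, by 0.44 (limma adjusted p = 0.0416). The list's median change was -0.11 at 24 h and 0.07 at 48 h. With array medians centred 1 of the 12 rose and 1 fell at 24 h, and 5 rose and 2 fell at 48 h.

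Igsf23 and Arhgap22 differed most between the times. Igsf23 signals at 24 h were 28.9, 27.2, 30.9, 25.7 and 28.7 in vehicle, 92.2, 42.8, 108, 37.4 and 57.4 at 300 µM and 43.1, 55.3, 270.4, 79.0 and 345 at 3000 µM. At 48 h they were 236, 88.3, 34.3, 37.2 and 27.3 in vehicle, 154, 31.1, 35.8, 48.0 and 96.7 at 300 µM and 788, 626, 750.4, 1079 and 691 at 3000 µM. The 24 h vehicle arrays were all but equal, with an SD of 0.0995 in log2, and every treated array of that time lay above them, but at 3000 µM 3 arrays lay within the range of 300 µM and 2 far above it. At 48 h all 3000 µM arrays were above the rest. The difference of 3000 µM from vehicle was 1.99 at 24 h (SE 0.755) and 3.71 at 48 h (SE 0.755), or 0.85 and 2.35 as log2(signal + 100), and at 3000 µM the 48 h arrays exceeded the 24 h arrays by 2.79, the largest such difference among named probe sets tested. At 300 µM the difference from vehicle was 1.13 at 24 h (SE 0.755, limma adjusted p = 0.543), without overlap of the arrays as for 2.78% of all tested, and 0.03 at 48 h (SE 0.755, limma adjusted p = 0.995).

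Arhgap22 was hardly separated at 24 h. Its signals were 152, 178, 90.3, 158 and 7.55 in vehicle, 143, 133, 18, 15.5 and 33.5 at 300 µM and 142, 49.3, 253, 246 and 246 at 3000 µM. After 48 h the signals were 28.7, 21, 9.94, 86.8 and 31.0 in vehicle, 141, 255, 67.5, 96.4 and 55.7 at 300 µM and 632, 499, 438, 600.1 and 588 at 3000 µM. At 24 h the groups overlapped, and at 48 h the 3000 µM arrays were above all others, with vehicle signals among the lowest on the array. On the log2 scale 3000 µM differed from vehicle by 1.04 at 24 h (SE 0.851) and 4.31 at 48 h (SE 0.851), rank 112 and rank 2 of 12971. As log2(signal + 100) it differed by 0.41 and 2.28, rank 1160 and rank 5. The 24 h value was 0.20 to 1.47 when single arrays were left out, lowest without array 5 of vehicle. Vehicle itself differed by -1.50 between 48 h and 24 h (SE 0.851, limma adjusted p = 0.337), and at 300 µM the difference from vehicle was -0.80 at 24 h (SE 0.851, limma adjusted p = 0.743) and 1.93 at 48 h (SE 0.851, limma adjusted p = 0.34). These last differed by 2.74 (SE 1.2, limma adjusted p = 0.602). Vehicle wells had served in part to choose the genes, so these comparisons are not independent of the choice.

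**Figure D3:**
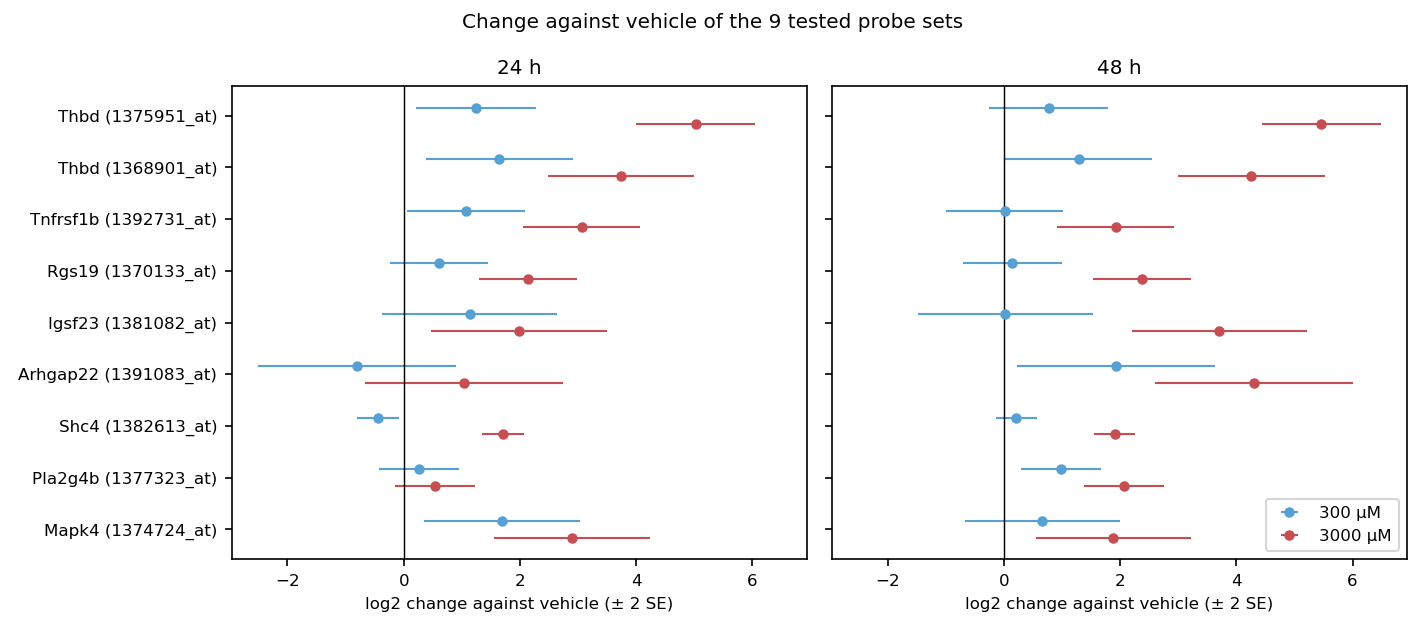
Log2 change against vehicle of the 9 tested probe sets at 300 µM (blue) and 3000 µM (red), at 24 h and 48 h, as the fitted change with bars of 2 standard errors on either side. At 3000 µM all 9 estimates lie above 0 at both times, which the choice of the genes by this contrast favoured. The bars at 3000 µM are a description with no test, and for Arhgap22 and Pla2g4b at 24 h they extend below 0.

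Shc4 had the smallest SE of the members' tested probe sets in the fit over all groups, and was nearer the middle of the array in vehicle. In single groups other members had smaller SDs: at 3000 µM and 48 h Mapk4 1374724_at had 0.111 in log2 and Shc4 0.405. Its signals at 24 h were 314, 309.9, 269, 354 and 257 in vehicle, 193, 329, 164, 274 and 181 at 300 µM and 1242, 884, 884, 872 and 1037 at 3000 µM. The 48 h signals were 502, 608, 512, 464 and 419 in vehicle, 647, 519.9, 591, 529 and 606 at 300 µM and 1963, 2186, 1978, 1143 and 2301 at 3000 µM. The 3000 µM arrays were above all others at both times, and the vehicle mean stood at or above 45.7% of probe sets at 24 h and 56.1% at 48 h. The difference of 3000 µM from vehicle was 1.71 at 24 h (SE 0.179) and 1.91 at 48 h (SE 0.179), a 3.74-fold signal at 48 h. Array 4 at 48 h, which also stood apart on the control probe sets, gave the lowest signal of its group, and without the 2 arrays the 48 h difference was 2.08.

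Shc4 also rose with time in culture in vehicle and at 300 µM. At 300 µM, where no array had served to choose the genes, the 48 h signals were all above the 24 h ones, by 1.39 (SE 0.179, limma adjusted p = 2.16e-06, and 1.17e-07 to 0.00115 over the alternatives). Shc4 was the 1 called probe set of the 9 in this comparison, in which 5.19% of all tested were called and 3.67% were higher at 48 h without overlap. In vehicle it rose by 0.73 from 24 h to 48 h, again without overlap (SE 0.179, limma adjusted p = 0.00884, and 0.0033 to 0.0286 over the alternatives). It was the 1 of 9 called where 7.2% of all were, and 4.56% of all were higher at 48 h without overlap, in wells that had served in part to choose the genes. At 300 µM it differed from vehicle by -0.44 at 24 h (SE 0.179, limma adjusted p = 0.223) and by 0.21 at 48 h (SE 0.179, limma adjusted p = 0.729). The difference between these was 0.66 (SE 0.254, limma adjusted p = 0.542), with an interval of 2 SE from 0.15 to 1.16.

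Of 18 other tested Shc family members and adaptors between receptor tyrosine kinases and Ras, 4 rose and 4 fell at 24 h at 3000 µM, and 2 rose and 5 fell at 48 h (limma, adjusted p under 0.05). For all probe sets tested the shares were 17.3% and 14.8% at 24 h, and 19.5% and 19.9% at 48 h. Grb10, an adaptor that restrains insulin receptor signalling, rose by 1.06 at 24 h with no overlap (limma adjusted p = 1.08e-10). Its relatives Grb7 and Grb14 fell by 0.90 at 24 h and 0.54 at 48 h (limma adjusted p = 0.000921 and 0.000202), and the adaptor Nck2 fell by 0.82 at 48 h (limma adjusted p = 1.73e-06). The median change of these genes was 0.06 at 24 h and -0.07 at 48 h.

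Pla2g4b also stood near the middle of the array in vehicle at 24 h, and its difference at 3000 µM was larger at 48 h. Signals at 24 h were 399, 330.2, 366, 96.8 and 456 in vehicle, 411, 235, 469, 372 and 309 at 300 µM and 379, 562, 381, 494 and 341 at 3000 µM. At 48 h they were 109, 138, 115, 433 and 133 in vehicle, 384, 386, 358, 309.8 and 185 at 300 µM and 609, 778, 729, 593 and 613 at 3000 µM. All groups overlapped at 24 h. At 48 h the 3000 µM arrays were above the rest, and 4 of the 5 vehicle arrays were below every 300 µM array while 1 was above them all. On the log2 scale 3000 µM differed from vehicle by 0.54 at 24 h (SE 0.344), rank 796 of 12971, and 2.06 at 48 h (SE 0.344), rank 11. As log2(signal + 100) the ranks were 1416 and 22. Leaving out single arrays gave 0.14 to 0.70 at 24 h, lowest without array 4 of vehicle.

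At 300 µM Pla2g4b differed from vehicle by 0.26 at 24 h (SE 0.344, limma adjusted p = 0.81) and 0.99 at 48 h (SE 0.344, limma adjusted p = 0.17). Without array 4 of vehicle at 48 h it rose by 1.35 (limma adjusted p = 0.0239, and up to 0.352 over the alternatives). Vehicle differed by -0.89 between 48 h and 24 h (SE 0.344, limma adjusted p = 0.123), and without array 4 of vehicle at 24 h or at 48 h it fell by 1.29 or by 1.25 (limma adjusted p = 0.00641 and 0.0147, and up to 0.315 over the alternatives). All these comparisons use vehicle wells, which had served in part to choose the genes, so the calls are not independent of the choice. In the RefSeq annotation Pla2g4b overlaps Jmjd7 and Sptbn5, so that the source of this signal is uncertain.

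Of 12 other tested phospholipases A2 and related lipases 1 rose and 2 fell at 24 h at 3000 µM, and 3 rose and 2 fell at 48 h (limma, adjusted p under 0.05). In all tested 17.3% rose and 14.8% fell at 24 h, and 19.5% rose and 19.9% fell at 48 h. Pla2g6, the calcium independent phospholipase A2, rose by 1.04 at 24 h (limma adjusted p = 0.000383) and the secreted Pla2g12a by 0.39 at 48 h (limma adjusted p = 3.64e-07). Pnpla8, a mitochondrial and peroxisomal phospholipase, and Pnpla3, a lipid droplet lipase, fell by 0.70 and 0.40 at 48 h (limma adjusted p = 2.23e-10 and 0.0136). The median over the list was 0.06 at 24 h and 0.20 at 48 h.

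Mapk4 was read by 2 probe sets of unlike pattern. With 1374724_at the signals at 24 h were 69.7, 473, 169, 18.9 and 25.6 in vehicle, 202, 361, 144, 194 and 469.9 at 300 µM and 458, 539, 585, 869.5 and 484 at 3000 µM. After 48 h the signals were 464, 22, 460.2, 359.9 and 336 in vehicle, 351, 377, 315, 481 and 280.1 at 300 µM and 844, 849, 799.7, 914 and 743 at 3000 µM. At 24 h 1 vehicle array lay among the 3000 µM arrays, and at 48 h the 3000 µM arrays were above all others. The difference of 3000 µM from vehicle was 2.89 at 24 h (SE 0.669) and 1.89 at 48 h (SE 0.669), or 1.69 and 1.30 as log2(signal + 100). The 48 h value was 1.05 without array 2 of vehicle at that time, whose signal was far below the other vehicle arrays.

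The other Mapk4 probe set, 1378751_at, reached the filter's signal in no group. It read 134, 41.4, 138, 84.3 and 67.8 in vehicle, 196, 132, 154, 36.6 and 92.8 at 300 µM and 181, 207, 14.9, 45.7 and 65.7 at 3000 µM at 24 h. At 48 h it read 118, 15.7, 154, 160.4 and 121 in vehicle, 71.2, 53.2, 183, 188 and 145 at 300 µM and 108, 222, 131, 124 and 121 at 3000 µM. All groups overlapped. Its difference of 3000 µM from vehicle, in the fit without the filter, was -0.28 at 24 h and 0.62 at 48 h (SE 0.645 each).

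At 300 µM Mapk4 1374724_at differed from vehicle by 1.70 at 24 h (SE 0.669, limma adjusted p = 0.205) and by 0.66 at 48 h (SE 0.669, limma adjusted p = 0.794). Without array 2 of vehicle at 24 h the former was 2.35 (limma adjusted p = 0.0395, and up to 0.434 over the alternatives). Vehicle differed by 1.54 between 48 h and 24 h (SE 0.669, limma adjusted p = 0.179), a value called at 2.20 without array 2 of vehicle at 24 h and at 2.38 without array 2 of vehicle at 48 h (limma adjusted p = 0.0305 and 0.00524, and up to 0.407 over the alternatives). It was also called with array weights, at 2.01 (limma adjusted p = 0.0469). As vehicle wells of both times had served in part to choose the genes, none of these calls is independent of the choice.

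Of 20 other tested genes of the mitogen-activated protein kinase pathways 3 rose and 1 fell at 24 h at 3000 µM, and 6 rose and 4 fell at 48 h (limma, adjusted p under 0.05). Beside these, 17.3% of all tested rose and 14.8% fell at 24 h, and 19.5% rose and 19.9% fell at 48 h. Pak1, a kinase known to phosphorylate the activation loop of ERK4, fell by 1.08 at 48 h (limma adjusted p = 2.64e-09). Dusp10, a phosphatase of p38 and JNK, and Mapkapk2, a target of p38, rose by 0.70 and 0.50 at 48 h (limma adjusted p = 0.000265 and 0.00185). Mapk8, which encodes JNK1, rose by 0.40 at 24 h (limma adjusted p = 0.0121). The median over these kinases and phosphatases was 0.06 at 24 h and 0.08 at 48 h.

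Across the genes, group means were ordered vehicle, 300 µM and 3000 µM, from low to high, in 7 of 11 probe sets at 24 h and in 10 at 48 h. The choice of genes high at 3000 µM and mostly low in vehicle favoured this order, so the counts are no support for a graded response. Some steps were small: at 48 h 300 µM exceeded vehicle by 0.01 in log2 for Tnfrsf1b and 0.03 for Igsf23. At 3000 µM 6 of the 11 had every array above every vehicle array at 24 h, where 13.2% of all tested probe sets did, and 8 at 48 h, where 11.5% did, a contrast that chose them. Against 300 µM, with the same 3000 µM wells, 5 were above without overlap at 24 h (12.3% of all tested) and 9 at 48 h (10.6%). At 3000 µM 4 of the 11 were above at 48 h against 24 h without overlap (4.37% of all tested): Thbd 1375951_at, Igsf23, Arhgap22 and Pla2g4b. These wells also chose the genes, and Igsf23 and Arhgap22 passed the filter only through 3000 µM at 48 h. This count is therefore not independent of the choice either.

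At 300 µM none of the 9 tested probe sets passed the test against vehicle at either time, where 2.99% of all tested did at 24 h and 1.54% at 48 h (limma, adjusted p from 0.188 to 0.81 and from 0.17 to 0.996). At an unadjusted p under 0.05 there were 5 at 24 h (14.5% of all tested), Shc4 among them with a lower signal, and 3 at 48 h (11.9%). The signal was higher than in vehicle for 7 of 9 at 24 h (50.3% of all tested) and for 9 of 9 at 48 h (45.9%). The vehicle wells served to choose the genes, so these counts are not independent of the choice. The wells of 300 µM had no part in it, and between 48 h and 24 h in them 5 of 9 were higher (51.3% of all tested). None of the 9 passed the test of a difference between the times in the response to 300 µM, nor did any of 16596 (limma, adjusted p under 0.05, 0.0% of all). At an unadjusted p under 0.05 2 of 9 and 7.54% of all did.

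In 5 of the 6 groups 8 or 9 of the 9 members had a larger SD between wells than the median tested probe set. At 3000 µM and 48 h 5 did. Most members had group means below the filter's signal in vehicle, and SD was not compared at matched signal level. Among all probe sets, tested or not, fewer members stood out at 3000 µM and 24 h. There 31.1% to 49.2% of probe sets had a smaller SD than Thbd 1368901_at, Tnfrsf1b, Rgs19, Shc4 or Pla2g4b. For Thbd 1375951_at, Igsf23, Arhgap22 and Mapk4 1374724_at the share was 54.7% to 93.2%. The median SD of log2 signal over tested probe sets was 0.18 in vehicle and 0.152 at 3000 µM at 24 h. For Thbd 1375951_at it was 1.37 and 0.357, and for Arhgap22 1.92 and 1.01. Shc4, with 0.185 in vehicle at 24 h, lay near the median of tested probe sets and Igsf23, with 0.0995, below it. Rgs19 had 0.426. Among all probe sets 28.4%, 10.9% and 56.8% had a smaller SD in that group than Shc4, Igsf23 and Rgs19.

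**Figure D4:**
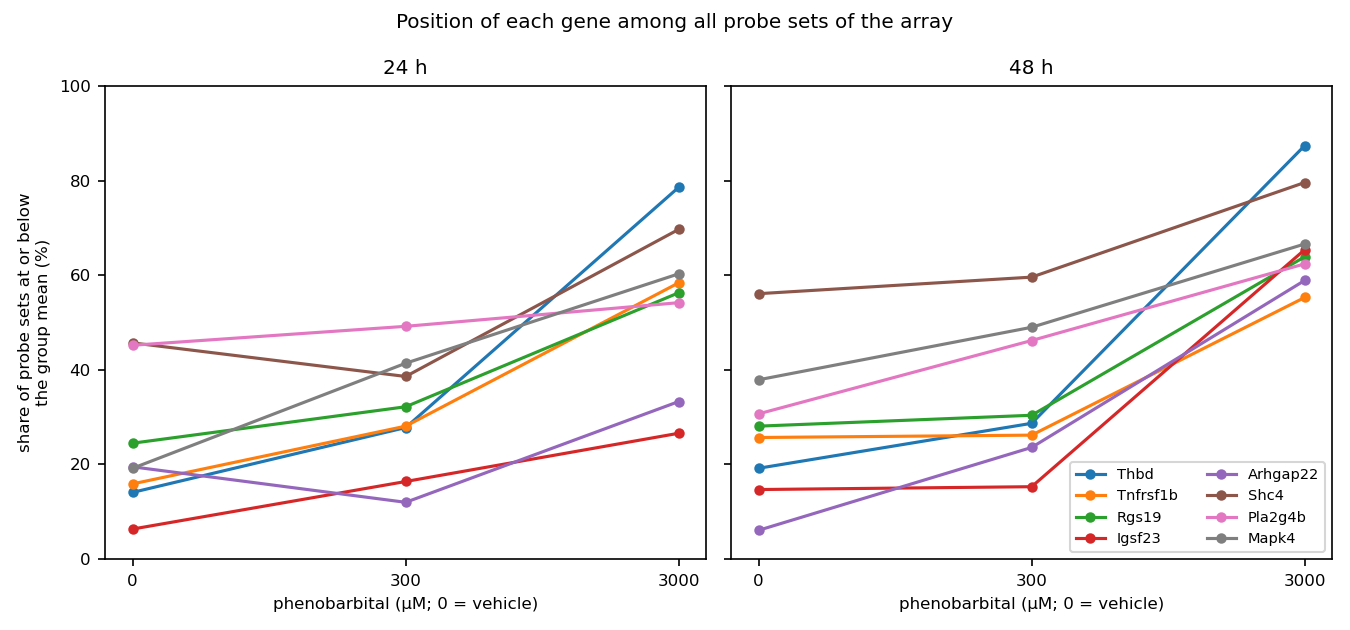
Share of probe sets on the array, in percent, at or below each gene's group mean, by dose (µM, 0 is vehicle), at 24 h and 48 h, with Thbd read by 1375951_at and Mapk4 by 1374724_at. Thbd goes from 14.1% to 78.6% at 24 h, and Shc4 and Pla2g4b start at 45.7% and 45.2%.

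Genes whose log2 signals followed each member over the 30 arrays were named by Pearson correlation, as a description, since the arrays share the dose groups. Thbd 1375951_at was followed by Plk2 (0.939), Eif1ad (0.936) and Sppl2a (0.935), and Shc4 by Sult1c2 (0.958), Crk (0.951) and Ifrd1 (0.946). Crk is itself an adaptor of receptor tyrosine kinase signalling, and Sult1c2 a sulfotransferase. Rgs19 was followed by Exosc3 (0.882), C14h4orf19 and Myo5b (0.865 each), and Igsf23 by Wfdc2 (0.86), Vps26c (0.852) and Chid1 (0.849). For Tnfrsf1b they were Zdhhc7 (0.853), Ferry3 (0.842) and Trim27 (0.839). Correlations were lower for Arhgap22, with Drg2 (0.803), Cabcoco1 (0.776) and Aprt (0.767). They were lowest for Mapk4 1374724_at, with Cd2ap (0.767), Asxl2 (0.755) and Bod1 (0.753), and Pla2g4b, with Mlec (0.761), Eif5a (0.753) and Fkbp11 (0.745).

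Hepatocyte and other markers were read for the same wells. Of 13 hepatocyte markers none rose and 10 fell at 3000 µM at 24 h, and none rose and 6 fell at 48 h (limma, adjusted p under 0.05), and with array medians centred 1 rose and 5 fell at 24 h and 1 rose and 6 fell at 48 h. Without centring 17.3% of all tested rose and 14.8% fell at 24 h, and 19.5% rose and 19.9% fell at 48 h. Fga and Fgb, chains of fibrinogen, fell by 1.28 at 48 h and 0.55 at 24 h (limma adjusted p = 9.34e-15 and 7.91e-07). Apob fell by 0.89 at 48 h and Cyp2e1 by 0.78 at 24 h (limma adjusted p = 3.71e-09 and 3.14e-05). Their summed signal was 655400 to 835300 in vehicle and 547900 to 583700 at 3000 µM at 24 h, and 577300 to 673900 and 507400 to 847500 at 48 h. Of 6 stellate cell and fibroblast markers tested none was called, and of 4 lymphocyte markers 1 fell at each time, Cd4 by 1.07 at 24 h (limma adjusted p = 0.0211). Epcam, the 1 cholangiocyte marker tested, fell by 0.14 at 48 h (limma adjusted p = 0.0289). Without the 2 arrays that stood apart the Epcam call was lost, and at 48 h none of the 4 lymphocyte markers fell and 1 rose. The summed signals at 3000 µM against vehicle overlapped at both times for the lymphocyte and stellate lists. The part of these markers in the members' signals was not tested.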

How the data were processed

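RNA of 30 wells of rat hepatocytes was read on 1 array each. The deposited values are array intensities on a linear scale, made by the authors with MAS5 per the submitters' processing notes, with no version given, and without detection calls. The equal trimmed means show 1 scale factor per array. Per the labels' titles the wells carry running numbers. The members and gene lists were chosen with earlier results of these data known. Signals were taken to log2 and fitted as 6 group means with limma 3.58.1 in R 4.3.3 (eBayes with trend and robust), with Benjamini-Hochberg adjustment over 16596 probe sets and 2-sided tests. Probe sets passed with a highest group mean at or above 384, and control probe sets were left out. The fit was tested on simulated data. Up to 4 genes per list were named, those with the largest change among those called at 3000 µM at either time, and the 3 named genes most correlated with each member. Klf2, Procr and Proc were named in addition. For a gene with several probe sets in a list, the one with the highest mean signal was used. Alternatives covered scaling, an added constant, the filter, the arrays in the fit, the variance model, array weights, a block and arrays left out. Each set of consecutive running numbers held 1 well of each group. Deviations from group means correlated with r of -0.064 to 0.094 between wells of 1 set (75 pairs). Between wells of different sets r was -0.375 to 0.110 (360 pairs). These pairs include wells of 1 group, whose deviations from their shared mean are pushed to negative r, so the ranges are not like for like. Within a set the median r was 0.0026, and no shared shift over the array was seen there. A pairing that acts on part of the probe sets was not tested. The number of wells limits the precision of array values. The result of 1 gene list is not reported here.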

Additional observations from a re-analysis of the deposited data

Results flagged for a closer look

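Single arrays lay far from the other 4 of their group, by Dixon's criterion at the 95% level, in 9 of 66 groups checked. Nominally the criterion marks about 1 in 20 groups by chance, but the share over all probe sets was not worked out. The count is therefore not read as an excess in these genes. For Thbd 1375951_at array 2 of 300 µM at 24 h was low, at a signal of 20.5. For Tnfrsf1b array 5 of 3000 µM at 24 h was low, at 422. Arhgap22 was lowest on array 5 of vehicle at 24 h, at 7.55. Shc4 was lowest on array 4 of 3000 µM at 48 h, at 1143, which is 1 of the 2 arrays that stood apart on control probe sets. Pla2g4b was low on array 4 of vehicle at 24 h, at 96.8, and high on array 4 of vehicle at 48 h, at 433. On array 2 of vehicle at 48 h both Mapk4 probe sets were low, 1374724_at at 22 and 1378751_at at 15.7. Mapk4 1378751_at was also high on array 2 of 3000 µM at 48 h, at 222.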

How the results depend on the processing

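Of the counts of called probe sets those at 3000 µM against vehicle, 5319 and 6539, ranged over 4803 to 5001 and 5997 to 6537 when single arrays were left out. Over the other alternatives they ranged over 4932 to 5938 and 5329 to 6671. At 300 µM against vehicle the count was 496 at 24 h, 227 with array medians centred and 689 with array weights. Leaving out single arrays gave 325 to 443, lowest without array 2 of 300 µM. At 48 h it was 255, then 124 centred, 615 with array weights, 482 when only the groups compared were fitted, 469 without the 2 arrays apart on control probe sets, and 168 to 266 with single arrays left out, lowest without array 4 of vehicle. With medians centred 67.0% of calls were higher at 24 h and 66.9% at 48 h, in place of 57.5% and 52.9%. Between the times the counts were 862 at 300 µM (549 centred) and 1195 in vehicle (736 centred), and leaving out single arrays gave 577 to 753 and 840 to 1180. With array weights they were 1266 and 1521. The difference of the 300 µM responses gave 0 calls, 1 with array weights, 3 with only the groups compared, 1 without the 2 arrays, and 0 to 1 with single arrays left out. Of the 9 members 0 were called at 300 µM at either time, and 0 to 1 with single arrays left out. In vehicle between the times 1 was called, 2 with array weights and 1 to 2 with single arrays left out. These vehicle wells had served in part to choose the genes. A replicate block of running number sets gave 466 calls at 300 µM at 24 h and 284 at 48 h and changed no member's call. Small differences changed sign. For Igsf23 300 µM against vehicle at 48 h was -0.035 on the log2(signal + 100) scale and -0.13 with array weights, and 48 h against 24 h at 300 µM was 0.019 on that scale. For Thbd the latter was -0.032 after quantile normalization and -0.022 with medians centred (1368901_at), and -0.066 on the log2(signal + 100) scale (1375951_at). With single arrays left out, 300 µM against vehicle at 24 h ranged from -0.14 to 0.42 for Pla2g4b. At 48 h it ranged from -0.25 to 0.30 for Tnfrsf1b, -0.068 to 0.46 for Rgs19, -0.31 to 0.52 for Igsf23 and -0.18 to 0.92 for Mapk4 1374724_at. The 48 h against 24 h difference at 300 µM ranged from -0.18 to 0.13 for Thbd 1368901_at, -0.54 to 0.35 for Thbd 1375951_at, -0.36 to 0.19 for Tnfrsf1b, -0.57 to 0.13 for Rgs19, -0.38 to 0.20 for Igsf23 and -0.30 to 0.035 for Pla2g4b. In vehicle it ranged from -0.030 to 1.07 for Thbd 1368901_at, and at 3000 µM from -0.38 to 0.019 for Tnfrsf1b. The difference of the 300 µM responses ranged from -1.06 to 0.048 for Thbd 1368901_at and -1.14 to 0.078 for Thbd 1375951_at. The cause of these changes was not tested. On the log2(signal + 100) scale the 9 members' differences at 3000 µM from vehicle were 0.37 to 3.49 at 24 h and 1.30 to 4.33 at 48 h.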
